A study of Mus musculus with 7 samples.

Results

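The mouse genes Runx1, Runx2 and Runx3 and their partner gene Cbfb had 122 accessible chromatin regions nearest to them, of 119215 regions in all, in mammary tumor cells sorted by a reporter of the Notch ligand gene Dll1. Of the 122 regions, 65 belonged to Runx1, 33 to Runx2, 19 to Runx3 and 5 to Cbfb. Each region went to the protein-coding gene whose transcription start site (TSS) lay nearest to the region's midpoint, so no measured value entered that choice.

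Open chromatin was measured by ATAC-seq, in which a transposase inserts sequencing adapters into accessible DNA. All samples came from MMTV-PyMT tumors, in which the mouse mammary tumor virus promoter drives the polyoma middle T oncogene in mammary epithelium, in mice that also carried a Dll1-mCherry reporter transgene. After removal of cells with CD45, CD31 or Ter119, the remaining cells were sorted as mCherry positive (Dll1+, 3 samples) or mCherry negative (Dll1-, 4 samples), so the gate read the reporter. The 7 samples came from 4 tumors, 3 of which gave both populations, while the other gave a Dll1- sample only. The ages of the mice were not given in the sources used here. The processed values used here were 1 pooled peak list per population, so no spread between samples could be computed from them and no p-value is given.

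Accessible regions were found within 1 kb of a TSS in both lists for 14 of 14 luminal epithelial marker genes and 5 of 9 basal marker genes. The same held for 0 of 11 immune, 1 of 5 endothelial (Kdr) and 3 of 10 fibroblast marker genes. Counted by TSS over all protein-coding genes, 35.8% had no region of either list within 1 kb and 3.44% had one in Dll1- alone. The pan-leukocyte gene Ptprc, which encodes CD45, had no such region in either list. One immune gene had a region in each single list (Cd3g in Dll1+, Csf1r in Dll1-), and the fibroblast genes Col1a2, Pdgfrb and Fbn1 had one in the Dll1- list alone. The part of such cells in the results below was not tested.

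RUNX proteins are transcription factors that bind DNA through the Runt domain, and CBFB, which does not bind DNA itself, joins that domain and strengthens its binding. Each Runx gene is transcribed from a distal promoter (P1) and a proximal promoter (P2), whose products begin with different amino acids. Runx1 is the RUNX factor best known from blood formation and is also active in mammary luminal cells, Runx2 is known from bone formation and mammary development, and Runx3 from T cells and epithelia.

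The sequences that carry the comparison are printed first, from the GRCm38 (mm10) genome, plus strand, 5′ to 3′. Each is centered on the summit, the base with the most signal in a region, and reaches 100 bases to either side. Capitals mark matches to RUNX (TGTGGT or TGCGGT), AP-1 (TGACTCA or TGAGTCA), TEAD (GGAATGT), FOX (TGTTTAC), ETS (CCGGAAGT), the family of GATA factors (AGATAA), GRHL (AACCNGGTT) or RBPJ (TGTGGGAA or CGTGGGAA) on either strand. Positions in kb are distances from the nearest TSS of the gene, negative upstream. The strongest shared regions are shown because they were open in both populations, centered on the Dll1+ summit. For Runx1 the region at -104 kb was about as strong as the one printed.
Runx1 -173 kb, chr16:92998768-92998968: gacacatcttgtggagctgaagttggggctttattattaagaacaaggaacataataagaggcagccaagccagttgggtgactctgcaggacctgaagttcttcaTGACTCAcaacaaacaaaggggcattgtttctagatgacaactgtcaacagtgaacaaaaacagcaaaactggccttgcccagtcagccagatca
Runx2 25.4 kb, chr17:44709945-44710145: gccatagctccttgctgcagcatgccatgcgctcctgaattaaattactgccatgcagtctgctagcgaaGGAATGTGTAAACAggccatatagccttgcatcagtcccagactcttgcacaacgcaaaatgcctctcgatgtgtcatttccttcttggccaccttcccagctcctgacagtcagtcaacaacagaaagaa
Runx3 -40.7 kb, chr4:135079832-135080032: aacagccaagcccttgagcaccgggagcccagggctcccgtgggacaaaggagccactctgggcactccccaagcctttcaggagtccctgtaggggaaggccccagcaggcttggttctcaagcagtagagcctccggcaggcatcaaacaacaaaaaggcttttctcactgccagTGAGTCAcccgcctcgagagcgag
Cbfb 15.7 kb, chr8:105186697-105186897: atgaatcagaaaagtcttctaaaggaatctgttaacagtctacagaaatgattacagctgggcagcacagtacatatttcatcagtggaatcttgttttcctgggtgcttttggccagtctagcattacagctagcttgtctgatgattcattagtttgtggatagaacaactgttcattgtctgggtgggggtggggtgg
Runx1 -173 kb and Runx3 -40.7 kb each held 1 AP-1 match. Runx2 25.4 kb held a TEAD match that abuts a FOX match, and Cbfb 15.7 kb held no match.

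The following windows are shown because the populations differed most there. Of the shared regions, Runx1 75.2 kb had the largest rank difference towards Dll1- and is centered on the Dll1- summit, and Cbfb -15.1 kb had the largest towards Dll1+. Runx1 -41.9 kb was the strongest region found in the Dll1- list alone, and Runx3 -66.1 kb the strongest found in the Dll1+ list alone.
Runx1 75.2 kb, chr16:92620816-92621016: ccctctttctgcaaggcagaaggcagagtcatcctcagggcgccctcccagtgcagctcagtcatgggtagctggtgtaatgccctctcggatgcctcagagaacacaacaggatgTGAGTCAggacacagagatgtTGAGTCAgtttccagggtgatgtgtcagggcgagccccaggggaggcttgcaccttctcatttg
Cbfb -15.1 kb, chr8:105155342-105155542: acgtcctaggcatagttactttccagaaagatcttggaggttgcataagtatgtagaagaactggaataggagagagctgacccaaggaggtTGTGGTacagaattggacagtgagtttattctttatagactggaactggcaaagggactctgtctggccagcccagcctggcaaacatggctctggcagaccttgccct
Runx1 -41.9 kb, chr16:92739173-92739373: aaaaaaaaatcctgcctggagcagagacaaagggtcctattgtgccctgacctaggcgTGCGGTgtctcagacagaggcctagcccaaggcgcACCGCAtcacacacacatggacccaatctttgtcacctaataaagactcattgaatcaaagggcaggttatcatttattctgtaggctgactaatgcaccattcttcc
Runx3 -66.1 kb, chr4:135054455-135054655: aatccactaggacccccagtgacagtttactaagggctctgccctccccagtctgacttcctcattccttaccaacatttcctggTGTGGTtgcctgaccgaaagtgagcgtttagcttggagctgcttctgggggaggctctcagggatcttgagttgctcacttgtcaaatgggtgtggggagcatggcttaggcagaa
Runx1 75.2 kb held 2 AP-1 matches and Runx1 -41.9 kb held 2 RUNX matches. Cbfb -15.1 kb and Runx3 -66.1 kb held 1 RUNX match each.

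The Runx3 promoters are shown because no region of the Dll1+ list covered either of them. The P1 sequence is the 250 bases before the RefSeq start, and the P2 window ends at the last base before the GENCODE TSS.
Runx3 distal promoter, chr4:135120395-135120644: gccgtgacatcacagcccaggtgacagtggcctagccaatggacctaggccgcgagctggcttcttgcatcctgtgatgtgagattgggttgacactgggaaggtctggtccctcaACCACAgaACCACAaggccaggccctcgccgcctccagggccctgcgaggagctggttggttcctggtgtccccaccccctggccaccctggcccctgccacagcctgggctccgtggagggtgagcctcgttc
Runx3 proximal promoter, chr4:135152342-135152495: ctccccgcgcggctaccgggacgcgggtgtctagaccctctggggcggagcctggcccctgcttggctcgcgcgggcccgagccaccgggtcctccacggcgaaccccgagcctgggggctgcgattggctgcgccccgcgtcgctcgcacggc
The P1 sequence held 2 RUNX matches and was covered by no region of either list. The P2 window held no match and was covered by a region of the Dll1- list alone.

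Near the Runx genes and Cbfb, regions were found in both lists about as often as over the genome. Rows of both lists were merged where they overlapped or touched, and a merged region was shared when both lists contributed to it. Of the 122 regions, 84 were shared (68.9%, 95% Wilson interval 60.2 to 76.4, against 66.4% of all regions), 7 were found in Dll1+ only (5.74%, 2.81 to 11.4) and 31 in Dll1- only (25.4%, 18.5 to 33.8). Over all regions, 9.01% were Dll1+ only and 24.6% Dll1- only, both inside these intervals. The intervals cover counting error only, since reads were not tagged as single molecules and neighboring regions of a gene do not count as replicates. The Dll1- list was deeper, with a genome-wide background of 7.2 reads against 3.74 in Dll1+, so a region missing from the Dll1+ list was not called at that depth. The Dll1- list also held cells of a tumor absent from the Dll1+ list, and the part of that tumor was not tested. In pooled sorted cells, fewer cells with an open region and less opening per cell cannot be told apart.

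The 4 genes differed in how much of their surroundings was shared. Runx1 had 51 shared regions of 65 (78.5%), 2 in Dll1+ only and 12 in Dll1- only (18.5%, 10.9 to 29.6). With rows above the median fold enrichment of each list, 30 of 45 Runx1 regions were shared (66.7%, against 69.7% of all regions) and 6 were Dll1+ only (13.3%, against 9.85%), so both shares crossed that of all regions, and 50% reciprocal overlap also gave 6 Dll1+ only (8.7%, against 12.8%). Runx2 had 20 of 33 shared (60.6%), 3 in Dll1+ only and 10 in Dll1- only (30.3%, 17.4 to 47.3). Runx3 had 9 of 19 shared (47.4%), 1 in Dll1+ only and 9 in Dll1- only (47.4%, 27.3 to 68.3). Cbfb had 4 of 5 shared and 1 in Dll1+ only, and its 0 of 5 in Dll1- only allowed a share of up to 43.4%. The Dll1- only share over all regions lay inside the interval of Runx1 and of Runx2 and below that of Runx3, which rests on 19 regions. With equal numbers of rows in both lists, Runx3 had 9 shared regions, 1 in Dll1+ only and 6 in Dll1- only (37.5%, 18.5 to 61.4), and 22.3% of all regions were Dll1- only, inside that interval. With rows above the median fold enrichment of each list, 3 of 8 were Dll1- only (37.5%, 13.7 to 69.4, against 20.4%), again inside the interval. Requiring 50% reciprocal overlap (54.5%, 34.7 to 73.1, against 28%) or a distance within 50 kb (54.5%, 28 to 78.7, against 23.6%) left the share of all regions below it. Counting single-list regions only where they held a row above the median fold of their list put it inside (16.7%, 4.7 to 44.8, against 7.49%). Counted this way, 20 of 21 Runx2 regions were shared (95.2%, against 90.6% of all regions) and 1 was Dll1- only (4.76%, against 7.49%). Both Runx2 shares thus crossed that of all regions.

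**Figure D1:**
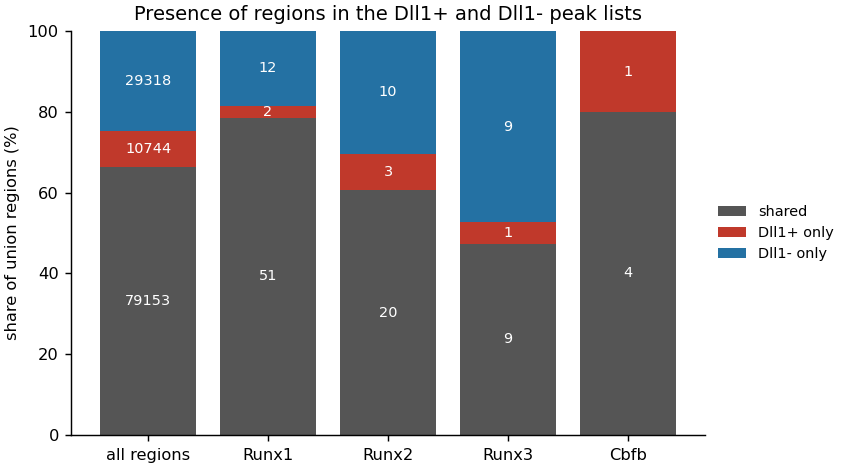
Share of union regions (%) that were shared, found in the Dll1+ list only or found in the Dll1- list only, for all regions and for each gene, with the number of regions printed in each bar. The Dll1- only part was 24.6% of all regions, 18.5% for Runx1, 30.3% for Runx2, 47.4% for Runx3 and 0 for Cbfb.

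At the TSSs of these genes, the distal promoters of the Runx genes had no region, while the proximal promoters had regions of unequal strength. The distal TSSs, 1 of Runx1, 4 of Runx2 and 1 of Runx3 in the annotation, had no region of either list within 1 kb, as did 35.8% of 41533 TSSs of protein-coding genes. The nearest region began 2208 bp from the Runx1 distal TSS, 8488 to 9059 bp from those of Runx2 and 29857 bp from that of Runx3. A shared region lay within 1 kb of the proximal TSSs of Runx1 and Runx2 and of all 4 TSSs of Cbfb. The proximal Runx3 TSS had a region in the Dll1- list alone, a state found at 3.44% of all TSSs. That region was no longer called with equal numbers of rows or with rows above the median fold enrichment of each list, and under the latter the Runx2 proximal promoter had no region either.

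Runx1 lies on the minus strand at chr16:92601466-92826149 (ENSMUSG00000022952.17). Its proximal promoter region (-0.111 kb, chr16:92697154-92697725) had a fold enrichment over local background of 11.8 in Dll1+ and 10.7 in Dll1-. Because the lists differ in depth, strength was compared as the percentile of a region's highest fold enrichment among all rows of its own list, here 84.9 in Dll1+ and 84.3 in Dll1-. A neighboring region at 0.529 kb, between the proximal TSSs, stood at percentile 36.5 in Dll1+ and 62.6 in Dll1-, a difference of -26.1 points, and with rows above the median fold enrichment it was Dll1- only. Its summit carried 86 reads in Dll1+ and 218 in Dll1-. Ranked by reads instead, the difference at 0.529 kb was -12.5 points.

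Runx2 lies on the minus strand at chr17:44495987-44814797 (ENSMUSG00000039153.16). Its proximal promoter region (-0.412 kb, chr17:44735476-44736769) was broad, with 5 summits in Dll1+ and 4 in Dll1-, and only moderately strong, at percentiles 45 and 43. The summit carried 62 and 84 reads. A weak shared region at 0.941 kb stood at percentiles 5.7 and 11.4.

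Runx3 lies on the plus strand at chr4:135120652-135177990 (ENSMUSG00000070691.10). The region over its proximal TSS (-0.081 kb, chr4:135152302-135152529) was weak in the Dll1- list, with 22 reads over a local background of 8.55, a fold enrichment of 2.41 and percentile 8.07. At the shallower depth of the Dll1+ list no region was called there. The distal Runx3 promoter had none in either list.

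Cbfb lies on the plus strand at chr8:105170674-105217989 (ENSMUSG00000031885.14). Its promoter region (0.022 kb, chr8:105170171-105171764) was the widest of the promoter regions, at 1594 bp, and strong in both lists. The fold enrichment was 12.9 in Dll1+ and 13.2 in Dll1-, at percentiles 87.9 and 90.5, and the summit carried 207 and 333 reads.

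RUNX letters occurred in the distal promoters of Runx2 and Runx3. In the 250 bases upstream of each RefSeq start, the Runx3 distal promoter held 2 RUNX matches and the Runx2 distal promoter 1. Both Runx1 promoters, the Runx3 proximal promoter and the Cbfb promoter held 0. Of 32851 RefSeq promoters of this length, 18.6% held at least 1. No RefSeq promoter was matched for the proximal start of Runx2.

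The regions spread over long distances around the Runx genes. Of the 122 regions, 52 lay 100 kb or more from the nearest TSS (42.6%), against 17.4% of all regions, and the median distance was 77.8 kb against 23.1 kb. By annotation, 59 were intergenic, 55 intronic, 7 in promoters (1000 bp upstream to 100 bp downstream of any TSS) and 1 in a non-coding exon. The median was 81.6 kb for shared regions, 57.7 kb for Dll1+ only and 69.5 kb for Dll1- only, against 20, 34.1 and 27.7 kb over all regions. The genes differed in this. Runx1 Dll1- only regions had a median of 233 kb against 96 kb for its shared regions, while the medians were 112 and 137 kb for Runx2 and 39.8 and 47.3 kb for Runx3.

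Runx1 regions lay mainly upstream. Of its 65 regions, 48 were upstream of their nearest TSS, out to -376 kb, and 40 were intergenic. Only 33 of 21924 protein-coding genes, Runx1 included, had as many, where the median gene had 3. The stretch of genome nearest to Runx1 was 618 kb and held 10.5 regions per 100 kb, against 4.37 over the genome.

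Runx2 regions lay mainly inside genes. Of its 33 regions, 29 were intronic and 19 lay 100 kb or more from a TSS, with a median of 117 kb. Its stretch of 623 kb held 5.29 regions per 100 kb. The body of Runx2 held 26 of the 33 regions and also 4 regions nearest to Supt3, a gene that overlaps it. The intronic regions at -107, -203, -204, -206 and -219 kb lay in introns of Supt3, outside Runx2.

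Runx3 had 19 regions in a stretch of 187 kb (10.2 per 100 kb), of which 15 were intergenic and 11 upstream, and none lay 100 kb away. Only 4 of its regions were inside the gene. Cbfb had 5 regions in a stretch of 46.8 kb (10.7 per 100 kb), between -17.6 and 16.3 kb.

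**Figure D2:**
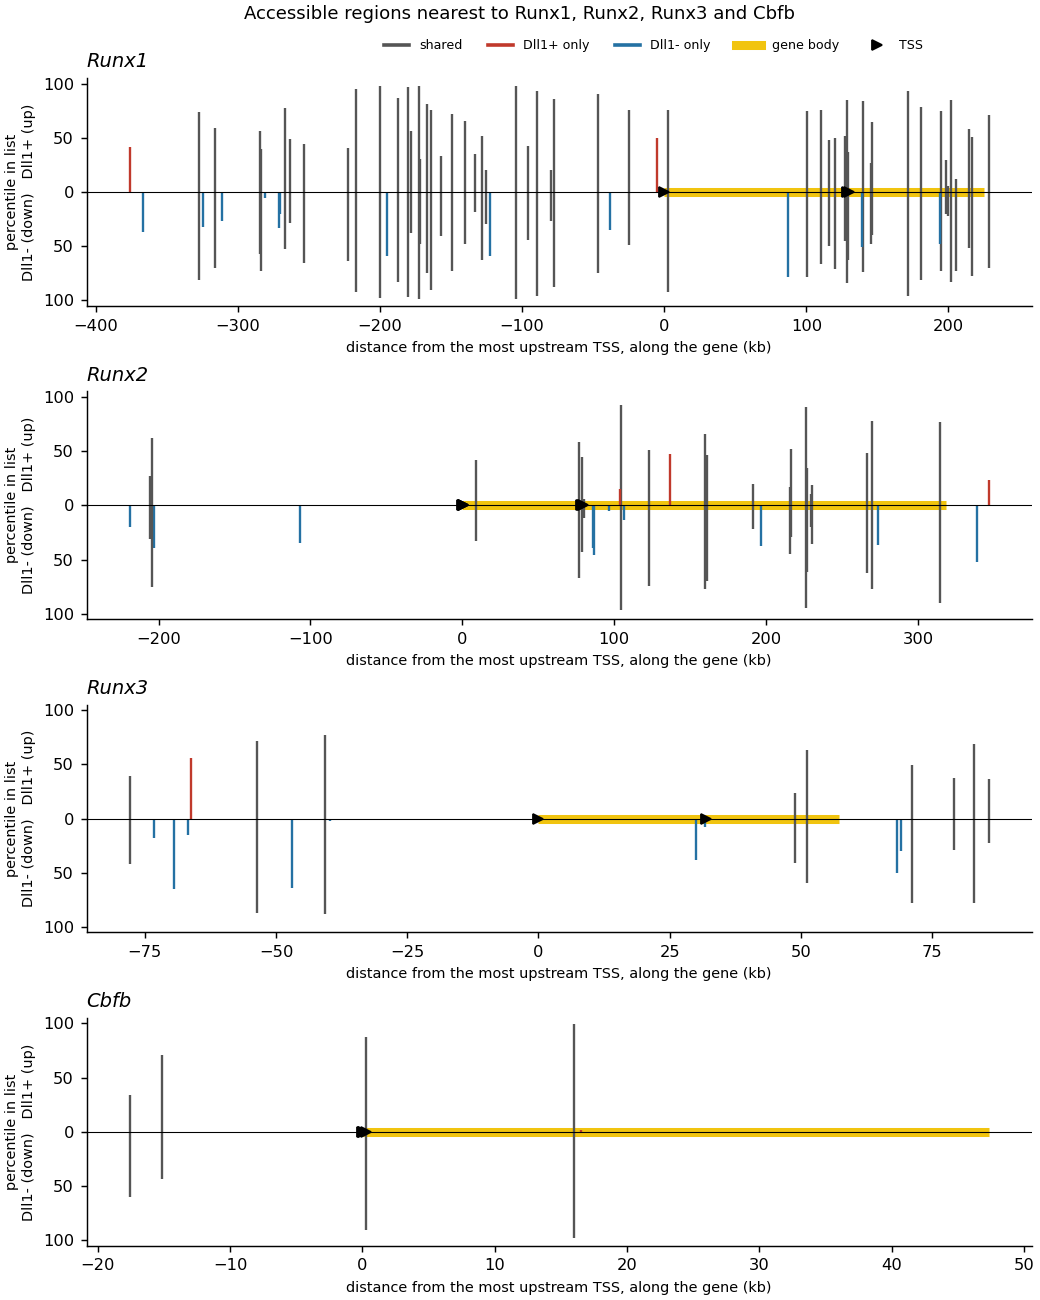
Regions nearest to each gene, by distance (kb) from the most upstream TSS along the direction of transcription, with the percentile of fold enrichment in the Dll1+ list upward and in the Dll1- list downward. Gray lines are shared regions, red Dll1+ only and blue Dll1- only, the yellow bar is the gene body and arrowheads are TSSs. The tallest Runx1 lines stand upstream of the gene, and no region lies within 1 kb of a distal TSS of a Runx gene.

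The strength of shared regions was compared next, to ask whether a region open in both populations ranked differently in them. A region was counted as higher in a population when its percentiles differed by at least 10 points. Of the 84 shared regions, 12 ranked higher in Dll1+ (14.3%, against 15.1% of all shared regions), 30 ranked higher in Dll1- (35.7%, against 24.9%) and 42 differed by less. The median difference, Dll1+ minus Dll1-, was -2.61 points, against -1.66 over all shared regions with a standard deviation of 15.1. The Dll1- list held more rows (148923 against 132872), with a lower median fold enrichment (5 against 5.59), which enters every percentile. With equal numbers of rows in both lists, chosen by −log10 p-value, 18 ranked higher in Dll1+ (21.4%, against 22% of all shared regions) and 21 higher in Dll1- (25%, against 18.3%), and the median was -0.137 against 0.275. The 2 summits of a region were within 50 bp of each other in 73 of 84 regions (86.9%, against 87.8% of all shared regions).

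Runx1 shared regions stood at a median percentile of 65.4 in Dll1+ and 70.5 in Dll1-. Their median difference was -1.01 points, with 9 of 51 higher in Dll1+ and 15 higher in Dll1-. The differences ran from -61.1 to 26.8, so single regions differed in both directions. With equal numbers of rows the median was 0.64 points, with 13 higher in Dll1+ and 11 in Dll1-, so the sign of the Runx1 median turned.

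Runx2 shared regions ranked lower in the Dll1+ list. The median percentile was 47 in Dll1+ and 62 in Dll1-, the median difference -9.38 points, and 16 of 20 differences were negative. One region ranked higher in Dll1+ by the 10-point rule and 10 ranked higher in Dll1-. With equal numbers of rows the median was -4.4 points, 13 of 20 differences were negative, and 2 regions ranked higher in Dll1+ and 6 in Dll1-. At 50 kb or more from a TSS the median was -12.3 points over 14 regions, and nearer it was -5.13 over 6. Ranked by reads these medians were -4.94 and -3.81.

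Runx3 shared regions had median percentiles of 49.3 and 59.2 and a median difference of -9.07 points, with 1 of 9 higher in Dll1+ and 4 higher in Dll1-. With equal numbers of rows it was -6.36 points, with 2 higher in Dll1+ and 3 in Dll1-. By distance the median was -5.86 points for the 4 regions at 50 kb or more and -11.2 for the 5 nearer ones, or -13.4 and -21.3 ranked by reads. Cbfb had a median difference of -0.659 points over 4 regions, with 1 higher each way. Its sign turned with equal numbers of rows (0.0485), by −log10 p-value (0.491) and by reads (0.656).

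In the full lists, regions of middle strength ranked lower in Dll1+ over the genome as well. Among all shared regions with a mean percentile above 40 and up to 60, the median difference was -4.66 points and 39.8% ranked higher in Dll1-. For a mean percentile above 60 and up to 80 it was -3.17 points and 29.6%, and above 80 it was -0.706 points and 6.22%. In the first of these ranges the median was -14.5 points for 5 Runx2 regions and -1.83 for 14 Runx1 regions, and the 1 Runx3 region stood at -2.64. In the second it was -11.5 points for 5 Runx2 regions, -12.1 for 4 Runx3 regions and -0.279 for 14 Runx1 regions. At a mean percentile above 20 and up to 40, where all shared regions had a median of -3.22, it was 7.61 for 3 Runx3 regions, -4.32 for 5 Runx2 regions and -7.23 for 8 Runx1 regions. With equal numbers of rows, the medians over all shared regions were 3.97 points above 20 and up to 40, 0.608 above 40 and up to 60, -0.0738 above 60 and up to 80, and -0.0798 above 80. Most of the genome-wide difference at middle strength was thus absent with equal numbers of rows. The gene medians by range were taken from the full lists only.

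The difference of Runx2 depended on the measure. Ranking by the −log10 p-value gave a median of -8.01 points for Runx2 and -1.9 for all shared regions, while ranking by reads at the summit gave -4.39 and -2.52. The log2 ratio of reads in Dll1+ over Dll1-, each divided by its genome-wide background, had a median of 0.18 for Runx2, 0.23 for Runx1, -0.05 for Runx3, 0.42 for Cbfb and 0.24 over all shared regions. For Runx3 the median was -10.4 points by −log10 p-value and -14.7 by reads.

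**Figure D3:**
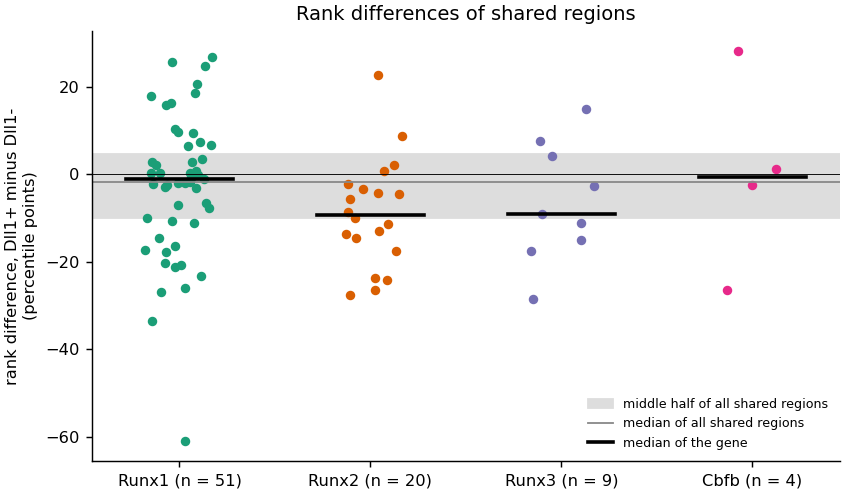
Rank difference (percentile points, Dll1+ minus Dll1-) of each shared region by gene, with the median of each gene as a black bar. The gray band holds the middle of all single shared regions, from -9.97 to 4.47, around their median of -1.66. The medians were -1.01 for Runx1, -9.38 for Runx2, -9.07 for Runx3 and -0.659 for Cbfb, and the lowest point is the Runx1 region at -61.1.

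The strongest Runx1 regions were far upstream and ranked within 1 point of each other in the lists. The region at -104 kb (chr16:92930062-92930590) had percentiles of 98.2 in Dll1+ and 98.3 in Dll1-, with 184 and 296 reads. The regions at -173 kb (98.1 and 98.3) and -200 kb (97.9 and 97.5) were as strong. Of the 51 shared Runx1 regions, 8 were in the top 10% of rows in Dll1+ (15.7%, against 16.6% of all shared regions). In Dll1- 9 were (17.6%, against 18.6%).

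The largest rank difference of any Runx or Cbfb region was in a Runx1 intron at 75.2 kb (chr16:92620743-92621075), the window printed above with 2 AP-1 matches. Its fold enrichment was 2.91 in Dll1+ and 7.9 in Dll1-, at percentiles 11.7 and 72.8, a difference of -61.1 points. The summit carried 37 reads over a local background of 12.1 in Dll1+, and 208 over 25.5 in Dll1-. By reads the difference was still -44.9 points, and with equal numbers of rows -57.9 points. The region at -284 kb also ranked higher in Dll1- (39.6 and 73.2, with 22 and 78 reads).

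In the other direction, the Runx1 regions at -24.5 kb (75.9 in Dll1+, 49.1 in Dll1-) and 16.1 kb (64.9 and 39.2) ranked higher in Dll1+, by 21.2 and 15.4 points when ranked by reads. Their summits carried 43 and 41 reads in Dll1+ and 39 and 42 in the deeper Dll1- list. The strongest Dll1- only region of Runx1, at -41.9 kb in an intron, had 73 reads and percentile 78.2, and the next, at -123 kb, 58 reads and 59.2. The Dll1+ only regions at -5.24 kb (26 reads, percentile 50.2) and -376 kb (22 reads, 41.8) were weaker.

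The strongest Runx2 region, at 25.4 kb (chr17:44709817-44710646), lay at the promoter of the antisense gene Runx2os2 within Runx2. Its percentiles were 92.3 in Dll1+ and 96.9 in Dll1-, with 169 and 315 reads. An intronic region at 147 kb stood at 90.8 and 94.3, with 476 and 610 reads, and an intronic region at 235 kb at 76.5 and 90.2, with 47 and 162 reads. All 3 ranked above the proximal promoter region of the gene in both lists.

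The Runx2 regions with the largest differences towards Dll1- were at 136 kb (17 and 44.6) and 148 kb (34.7 and 61.3). At 136 kb the difference of -27.6 points came to -12.7 by reads. At 148 kb the difference of -26.6 points came to -1.72 by reads, with local backgrounds of 31.8 and 37.8 reads. Towards Dll1+ the region at 138 kb stood at 51.7 against 29.1, with 49 reads in Dll1+ and 40 in Dll1-, and that at 8.64 kb at 41.8 against 33.1, less than 10 points apart but 16.8 points apart with equal numbers of rows. The regions found in a single list were of middle strength or weak: 260 kb (51.9) and 7.74 kb (46) in Dll1-, and 57.7 kb (47) and 267 kb (23.2) in Dll1+.

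The strongest Runx3 regions were upstream of the distal TSS. The region at -40.7 kb (chr4:135079736-135080163) stood at 76.8 in Dll1+ and 88 in Dll1-, with 44 and 109 reads, and that at -53.6 kb at 71.7 and 86.8, with 39 and 97 reads. Their differences were -11.2 and -15.1 points, or -9.79 and -13.5 with equal numbers of rows, so the region at -40.7 kb then fell short of 10 points. The region at 39.3 kb differed most (49.3 and 77.9, with 25 and 86 reads), followed by the intronic region at 17 kb (23.7 and 41.2). The region at 53.9 kb ranked higher in Dll1+ (36.9 and 22.1), by 14.8 points. The difference was 24.2 points with equal numbers of rows and 1.96 points when ranked by reads. The region at 47.3 kb (37 and 29.4) differed by less than 10 points. Its difference was 16.1 points with equal numbers of rows and -2.38 points by reads.

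The single Dll1+ only region of Runx3, at -66.1 kb, had 28 reads and percentile 55.6. The nearest region to it, at -66.8 kb, was Dll1- only and weak (22 reads, percentile 15.1). The strongest Dll1- only regions of Runx3 were at -69.5 kb (53 reads, percentile 64.5) and -47 kb (52 reads, 64).

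The Cbfb region at 15.7 kb (chr8:105186357-105187022), in an intron, was the strongest Cbfb region in both lists, at percentiles 99 and 97.8, with 248 and 318 reads. Of the upstream regions, -15.1 kb ranked higher in Dll1+ (71.3 and 43.1, with 56 and 43 reads) and -17.6 kb higher in Dll1- (33.9 and 60.3, with 29 and 60 reads). The Dll1+ only region at 16.3 kb was weak (22 reads, percentile 1.72).

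**Figure D4:**
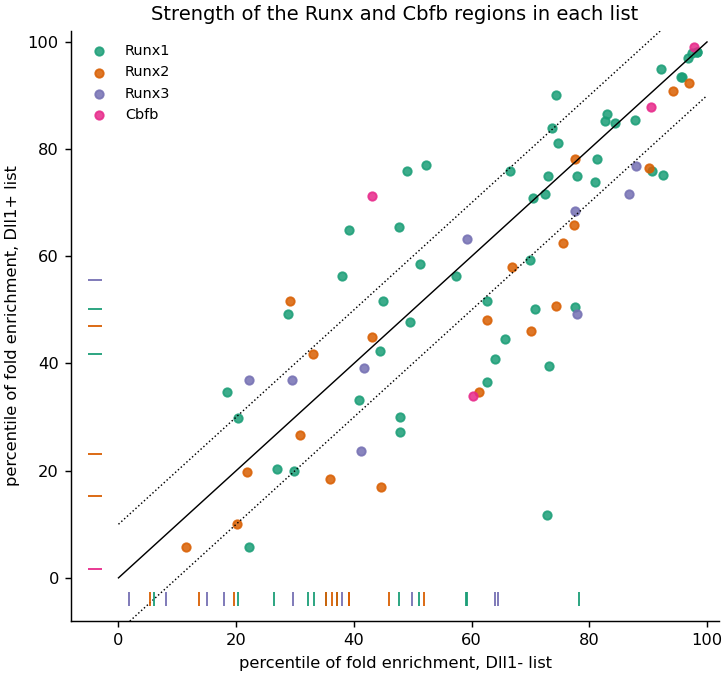
Percentile of fold enrichment in the Dll1- list (x) and the Dll1+ list (y) of each shared region, colored by gene, with the line of equality and dotted lines 10 points to either side. Ticks along the axes are regions found in a single list, whose highest percentiles were 55.6 in Dll1+ and 78.2 in Dll1-, and the point at 72.8 and 11.7 is the Runx1 intronic region at 75.2 kb.

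Regions found in a single list were weaker than shared ones, as over the genome. The shared regions had median percentiles of 58.3 in Dll1+ and 66.7 in Dll1-, below the 67.3 and 70.7 of all shared regions. The median percentile was 41.8 for the 7 Dll1+ only regions and 36.3 for the 31 Dll1- only regions, against 29.9 and 33.1 over all such regions. None was in the top 10% of its list, where 0.00931% of all Dll1+ only and 0.0887% of all Dll1- only regions stood. Of the shared regions, 11 were in the top 10% in Dll1+ (13.1%, against 16.6% of all shared regions) and 14 in Dll1- (16.7%, against 18.6%).

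RUNX and AP-1 letters were found near the summits of a larger share of the 122 regions than of all regions, though not for every gene. A RUNX match lay within 100 bp of the strongest summit in 33 of 122 regions (27%, 20 to 35.5), against 18.3% of all regions. With the longer letters TGTGGTT or TGCGGTT the share was 5.74%, against 5.95% of all regions, so the difference was not seen with them. An AP-1 match was present in 35 regions (28.7%, 21.4 to 37.3), against 17.5%. The median GC content of the windows was 49.8%, against 50.2%. Of the 122 regions, 6 lay under 1 kb from a TSS, against 16393 of all 119215 regions. An AP-1 match was present in 4.46% of 32851 RefSeq promoters. The AP-1 and RUNX shares were not compared at equal distance from a TSS.

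AP-1 matches were in 25 of 84 shared regions (29.8%, against 14.6% of all shared regions), 10 of 31 Dll1- only regions (32.3%, against 30.4%) and 0 of 7 Dll1+ only regions (up to 35.4%, against 4.4%). Runx1 had them in 18 of 51 shared regions and 1 of 12 Dll1- only regions. Runx2 had them in 6 of 20 shared regions and 6 of 10 Dll1- only regions. Runx3 had them in 4 of 19 regions (21.1%, 8.51 to 43.3), with 1 of 9 shared and 3 of 9 Dll1- only, and Cbfb in 0 of 5. RUNX matches were in 18 of 65 Runx1 regions, 10 of 33 Runx2 regions, 3 of 19 Runx3 regions and 2 of 5 Cbfb regions. Among Dll1- only regions they were in 3 of 12 of Runx1, 5 of 10 of Runx2 and 0 of 9 of Runx3, against 18.9% of all Dll1- only regions.

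Other motifs were rarer. GATA letters were in 10 regions (8.2%, against 5.47%), TEAD in 7 (5.74%, against 5.1%), FOX in 4 (3.28%, against 3.73%) and RBPJ, the DNA-binding factor of the Notch pathway, in 3 (2.46%, against 2.05%). The RBPJ matches were all near Runx1, at -178 kb (56.3 in Dll1+ and 37.9 in Dll1-), -285 kb (56.4 and 57.4) and 63.8 kb (Dll1- only, 47.7), and were named after their values were seen. ETS and GRHL letters were in 0 of 122 (up to 3.05%), against 1.07% and 0.199%. A match describes letters and not binding.

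**Figure D5:**
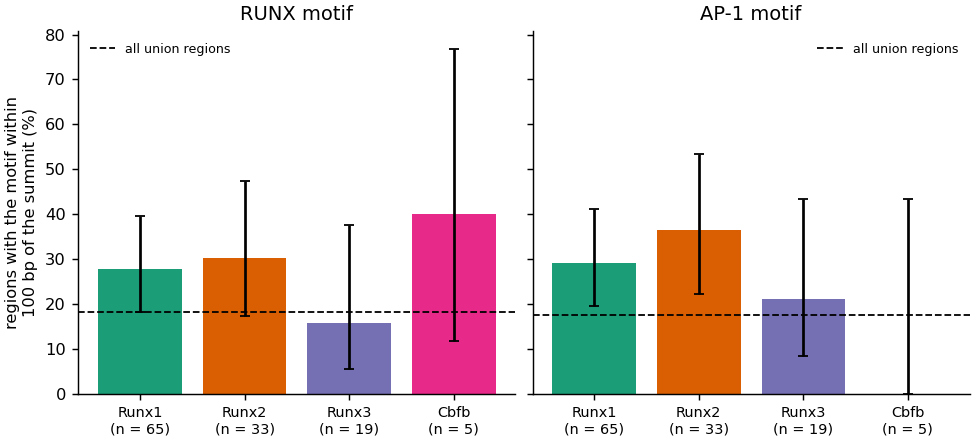
Share of regions (%) with a RUNX or an AP-1 match within 100 bp of the strongest summit, by gene, with Wilson 95% intervals as error bars. Dashed lines are the shares over all union regions (18.3% and 17.5%), which lie inside or at the edge of each RUNX interval and below the AP-1 intervals of Runx1 and Runx2. All union regions were not matched to the genes by distance from a TSS.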

How the data were processed

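ATAC-seq of 3 Dll1+ and 4 Dll1- samples was processed by the authors with the ENCODE ATAC-seq pipeline, which pooled the replicates of each population. The aligner, peak caller and thresholds are not given in the sources used here. GRCm38 and mm10 are the builds in the submitters' processing notes. The deposited rows each held an interval, 1 summit, the fold enrichment (a ratio to local background) and the −log10 p-value as the authors' caller gave them. The deposited score and the q-values were not used for any result. The lists held 132872 rows (Dll1+) and 148923 rows (Dll1-).

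Rows were merged where they overlapped or touched and assigned by midpoint to the nearest TSS of a protein-coding gene (GENCODE M21). Reads and local background at each summit were recovered by solving fold enrichment and p-value together, with 1 added to reads and background in the ratio and a Poisson upper tail as p-value, and 0 Dll1+ rows and 1 Dll1- row had no solution. Motifs were counted as exact letters. RefSeq promoters (GRCm38.p6) were matched by symbol. Merging, assignment and recovery were tested on simulated data. Python 3.11.15, pandas 2.3.3, numpy 2.4.6, scipy 1.17.1 and pysam 0.24.0 were used.

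The members and lists were chosen with earlier results of these data known. Regions named were all those within 1 kb of a TSS and, for each gene, the 3 strongest shared regions, the 2 largest rank differences each way and up to 2 strongest regions found in each list alone. From lists of RUNX partners and targets, the 3 genes with most regions found in a single list were named, and for each member the 5 genes with at least 20 regions and the nearest shares. Alternatives changed the rank measure, list size, fold threshold, overlap, TSS set, distance limit and motif. The log2 ratio of reads and the full gene annotation were added after seeing the data.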

Additional observations from a re-analysis of the deposited data

How the results depend on the processing

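No paired analysis was possible because each population was deposited as 1 pooled list, and leaving out a sample was not possible for the same reason. For the counts, medians and shares over all 122 regions, 30 recomputed values stayed within a margin (counts within 1.5 times, medians within 10 points, shares within their interval), 12 moved and 0 reversed. Limiting the TSSs to those of protein-coding transcripts changed no value, and its values are counted among the 30. The 10-point margin is wider than the medians themselves, so it could not register a change of their sign. Inside that margin, equal numbers of rows took the median from -2.61 to -0.137 points and the count higher in Dll1+ from 12 to 18. With rows above the median fold of each list, 44 regions were shared (62.9%, against 69.7% of all regions), 17 were Dll1- only (24.3%, against 20.4%) and 9 were Dll1+ only (12.9%, against 9.85%), so the Dll1+ only share went from below to above that of all regions. Requiring 50% reciprocal overlap gave 16 Dll1+ only regions (12.2%, against 12.8% of all regions). When a region found in a single list also had to hold a row above that list's median fold, 2 were Dll1+ only (2.15%, against 1.9%) and 7 Dll1- only (7.53%, against 7.49%). Within 50 kb of a TSS, 29 were shared (64.4%, against 68.5% of all regions), 3 Dll1+ only (6.67%, against 7.87%) and 13 Dll1- only (28.9%, against 23.6%), with 5 ranked higher in Dll1+ (17.2%, against 13.1%) and 9 in Dll1- (31%, against 25.1%). The RUNX share was 14.8% within 50 bp (9.9% of all regions) and 5.74% with the longer letters. In each case the alternative itself used fewer rows, regions or bases or a stricter match. Promoter rank differences were recomputed for the other rank measures and equal numbers of rows only. With rows above the median fold, 1 of the 5 shared promoter regions became Dll1- only and 2 had no region, so they had no rank difference. Depth limits the Dll1+ list most, where the median row had 43 reads at its summit against 61 in Dll1-.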

Other observations

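Among 30 genes whose proteins work with RUNX factors, 28 had at least 1 region and 487 in all, of which 319 were shared, 38 were Dll1+ only (7.8%, against 9.01% of all regions) and 130 Dll1- only (26.7%, against 24.6%). The median rank difference was -1.7 points, with 16.9% higher in Dll1+ (15.1% of all shared regions) and 25.7% higher in Dll1- (24.9%). The genes with most regions found in a single list were Ets1, an ETS factor that binds DNA together with RUNX1 (25 shared, 3 Dll1+ only, 19 Dll1- only), Gata3, a luminal regulator (53, 6 and 13), and Smad3, a TGF-beta effector (23, 4 and 13). These genes were named by number, and the share in a single list was 46.8% for Ets1, 26.4% for Gata3 and 42.5% for Smad3, against 33.6% of all regions.

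Among 30 genes known as RUNX targets, 27 had regions, 259 in all, with 170 shared, 20 Dll1+ only (7.72%, against 9.01% of all regions) and 69 Dll1- only (26.6%, against 24.6%). The median rank difference was -2.89 points, with 10.6% higher in Dll1+ (15.1% of all shared regions) and 28.8% higher in Dll1- (24.9%). The genes with most regions found in a single list were Foxo1 (35 shared, 5 Dll1+ only, 14 Dll1- only), Bcl2l11, which encodes the pro-apoptotic protein BIM (28, 4 and 12), and Vegfa (15, 2 and 7), with single-list shares of 35.2%, 36.4% and 37.5%.

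By the pair of shares found in Dll1+ only and in Dll1- only, the 5 nearest of 1203 genes with at least 20 regions were Dhrs3, Shank2, Ezr, Prickle1 and Nck2 for Runx1 and Haao, Zfp36l2, Dusp4, Ube2u and Rere for Runx2. For Runx3 they were Elfn1, Habp2, Gm10309, Opcml and Agpat3, at 0.56 to 2.04 percentage points. For Cbfb, whose shares rest on 5 regions, they were Ogfrl1, Ccdc162, Pwwp2b, Angpt1 and Cpeb4, and for Runx3 and Cbfb alike 7 genes were as near as the fifth of those named.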
